A study of Mus musculus with 9 samples.

Results

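Many transcripts in the mouse annotation carry a provisional name in place of a gene symbol. The transcripts described here are those named Gm and a number (predicted gene models), those ending in Rik (RIKEN cDNA clones) and those named AC, a number and a version (sequenced genomic clones). Called predicted transcripts below, they were chosen by name alone and number 58 of the 237 genes in the table of YTHDF1 and YTHDF2 overexpression, of which 47 are Gm, 4 Rik and 7 AC names. Of them 38 were also among the 194 genes of the YTHDF2 immunoprecipitation table. The remaining genes were 164 other nuclear genes and 15 mitochondrially encoded genes in the first table, and 142 and 14 in the second.

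The 9 libraries were made from total RNA of the mPFC (medial prefrontal cortex) of C57BL/6 mice. The groups were 3 libraries of an insoluble fraction at 22 months of age, 3 of YTHDF1+2 OE (overexpression of both proteins) and 3 of YTHDF2 RIP, the RNA that came down with YTHDF2 in an immunoprecipitation. The labels give no age for the OE and RIP animals, and the titles of those libraries name no fraction. A difference in age or fraction cannot be told apart from overexpression or immunoprecipitation here. The labels also give no vector, promoter or cell type for the overexpression, and no statement that replicates came from separate animals. P-values therefore measure only the spread between these libraries. No input or control-antibody library was analysed here, and no library labelled as a control for the overexpression. OE and RIP were each set against the same insoluble libraries.

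YTHDF1 and YTHDF2 are cytoplasmic proteins that bind RNA carrying N6-methyladenosine (m6A), a methyl mark on adenosines within a short consensus whose commonest core is GGACU. YTHDF2 is best known for directing marked RNA to deadenylation and decay, and YTHDF1 for its effect on translation. Provisional transcripts fall into kinds with different origins. A lincRNA lies between coding genes and an antisense RNA runs against one. A TEC entry is a provisional class of the annotation, a region with cDNA or polyadenylation evidence that awaits a decision, and a pseudogene is a copy of another gene. Reads from a stretch that a copy shares with its source fit both.

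Totals over the listed genes ran from 66812 to 77705 counts in the insoluble libraries and from 80116 to 99369 in OE. Over the shorter RIP table they ran from 61610 to 71736 in insoluble and from 79389 to 83620 in RIP. They are totals of selected genes and not depths, which are unknown here. Replicates differed beyond counting error most in RIP, where the chi-square per degree of freedom between replicate pairs was 5.96 to 12.8. It was 1.54 to 2.59 for OE pairs and 1.17 to 1.33 for insoluble pairs. In RIP, genes that are not predicted transcripts had part in this, such as Tie1 (65, 693 and 56 counts), Snhg11 (47, 479 and 428) and Fis1 (871, 76 and 752). A limit holds for every RIP value below. The authors' deposited RIP table gives a fold change per gene. It lay within 1.5-fold of the RIP to insoluble ratio of its row for 16 of 37 predicted transcripts tested and 65 of 190 genes. The 2 values lay on the same side of 1 for 25 of the 37 and 100 of the 190. Their rank correlations were 0.48 and 0.10. The match of RIP counts to gene names could therefore not be checked. In the OE table the deposited fold change lay within 1.5-fold of the insoluble to OE ratio in all 50 predicted transcripts tested. Of the cell type markers looked for, 7 of 10 endothelial genes were in the OE table. Their summed normalised counts were 364.1 to 416.2 in insoluble and 390.8 to 437.9 in OE libraries. Of these 7, 2 were called higher in OE and 0 lower. In the RIP table were 5 of the 10, at 385.2 to 431.3 in insoluble and 676.7 to 790.1 in RIP. Of those 5, Robo4 and Erg were called higher in RIP (log2 fold change 3.03 and 1.74) and Kdr and Cdh5 lower (-0.77 and -0.71), and Robo4 went from a mean of 48.9 to 400.7 normalised counts. Of 9 microglial and myeloid markers only Ngp was in the tables. It was called lower in OE (76.4 to 99.1 normalised counts in insoluble and 47.9 to 54.3 in OE) and higher in RIP (82.1 to 106 and 187.3 to 206.5). None of the neuronal, astrocyte and oligodendrocyte markers was in the tables, so the tissue label was not checked against those. The part of these differences in the results was not tested. In bulk RNA, fewer cells of a type and less RNA per cell cannot be told apart.

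By GENCODE release M21 (GRCm38), 20 of the 58 were TEC entries, 10 lincRNAs, 9 antisense RNAs and 12 pseudogenes. The others were 3 processed transcripts, 1 sense-intronic RNA, 1 miRNA and the protein-coding Gm5415. The identifier of A230057D06Rik was not found in that release. By symbol, RefSeq places A230057D06Rik on chromosome 7 from 61705850 to 61927574 as a lncRNA. Of the 58, 10 overlapped an exon of a coding gene on the opposite strand. Apart from these, 15 lay inside an intron of a coding gene on the same strand. A further 7 lay opposite a coding gene without touching its exons, 2 overlapped a coding gene on the same strand in another way, and 23 overlapped no coding gene. The hosts of the intronic entries included the ankyrin gene Ank2, the neuronal splicing factor Srrm4, the neurexin Nrxn3, the synaptic scaffold Dlg2 and the protocadherin Pcdh9. None of these hosts was analysed here, so what part unspliced host RNA has in such counts was not tested.

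Mean insoluble counts of the 58 ran from 0 to 1671 with a median of 85.3, and 27 reached 100. The other nuclear genes had a median of 94.2. Below the filter on low counts in the OE comparison were 8 predicted transcripts, D830024N08Rik, Gm44168, Gm38299, Gm37859, Gm10925, Gm28439, Gm3764 and Gm5415. Their counts ran from 0 to 11 in any insoluble or OE library. The 50 others were tested. Per kilobase of the longest transcript, the highest insoluble levels were 1682 ± 156 normalised counts for Gm14539, 1347 ± 90.3 for Gm42970, 981.9 ± 9.33 for AC171277.1 and 648.5 ± 15.6 for AC123061.2 (SD, n = 3 each). Each step in this order was larger than the sum of the SDs on either side of it. The level of Gm14539 is uncertain, as all of its 50-base words occur in other transcripts.

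Pseudogenes were the kind in which the sequence bears most on the counts. Of the predicted transcripts, 7 were copies of mitochondrially encoded genes, and 6 of these lay side by side within 4031 bases of the minus strand of chromosome 1 (chr1:24611535-24615565, GRCm38). In their order along that strand, Gm28661 copied mt-Co2, Gm10925 mt-Atp6, Gm28437 mt-Co3, Gm28438 mt-Nd3, Gm10222 mt-Nd4l and Gm28439 part of mt-Nd4. These encode subunits of respiratory complexes I and IV and of ATP synthase. Without gaps, Gm28661 (681 bases), Gm10925 (678), Gm28437 (783), Gm10222 (294) and Gm28439 (876) had 0 mismatches to the start of the mitochondrial gene. Gm28438 had 1 mismatch in 345 bases. Gm13340, on chromosome 2 (chr2:22588103-22589647, minus strand), had 37 mismatches to mt-Co1 in 1545 bases, an identity of 97.6%. A read from inside an exact copy fits both places, so such counts cannot be given to either gene from sequence alone.

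The sequence of Gm10222 (chr1:24612407-24612700, minus strand, GRCm38) is shown whole, because it was called in both comparisons below and the same letters open mt-Nd4l. The next 2 lines give the first 60 bases of Gm28438 (chr1:24613060-24613119, minus strand) and of mt-Nd3, with the only differing base in capitals. The last 2 give bases 1174 to 1293 of Gm13340 (chr2:22588355-22588474, minus strand) and of mt-Co1, where differing bases, in capitals, lie closest together. All are from GENCODE M21 transcripts.
Gm10222: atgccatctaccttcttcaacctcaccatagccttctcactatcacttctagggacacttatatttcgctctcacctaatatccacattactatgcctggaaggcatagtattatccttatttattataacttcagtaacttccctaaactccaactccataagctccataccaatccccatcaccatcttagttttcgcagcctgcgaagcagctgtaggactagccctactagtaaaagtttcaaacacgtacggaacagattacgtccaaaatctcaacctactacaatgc
Gm28438: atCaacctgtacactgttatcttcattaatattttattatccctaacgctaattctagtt
mt-Nd3: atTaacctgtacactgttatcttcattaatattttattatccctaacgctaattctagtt
Gm13340: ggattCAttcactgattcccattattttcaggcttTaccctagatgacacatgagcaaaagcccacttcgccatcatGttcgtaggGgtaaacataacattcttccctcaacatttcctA
mt-Co1: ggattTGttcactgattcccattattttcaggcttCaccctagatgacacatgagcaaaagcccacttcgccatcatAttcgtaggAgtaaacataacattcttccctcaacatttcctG

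The split of counts between copy and source differed from pair to pair although most copies were exact. Gm10222 held 131, 126 and 100 counts in insoluble libraries and 227, 232 and 169 in OE, whereas mt-Nd4l held 4, 1 and 1 and then 4, 2 and 2. Gm10222 thus carried 98.3% of the insoluble counts of the pair and 98.7% of those in OE. Gm28437 carried 94.4% and 91.9% in the pair with mt-Co3, but in RIP it held 112, 143 and 147 counts against 696, 654 and 676 for mt-Co3. In the opposite way, Gm10925 held 1, 0 and 2 insoluble counts while mt-Atp6, its exact source, held 355, 308 and 295. Gm28438, with 147, 148 and 141 insoluble counts against 266, 266 and 233 for mt-Nd3, and Gm13340, with 96, 87 and 92 against 93, 97 and 90 for mt-Co1, lay between these extremes. In RIP the order of the Gm28438 pair turned round, with 314, 361 and 343 counts against 123, 135 and 141 for mt-Nd3.

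**Figure D1:**
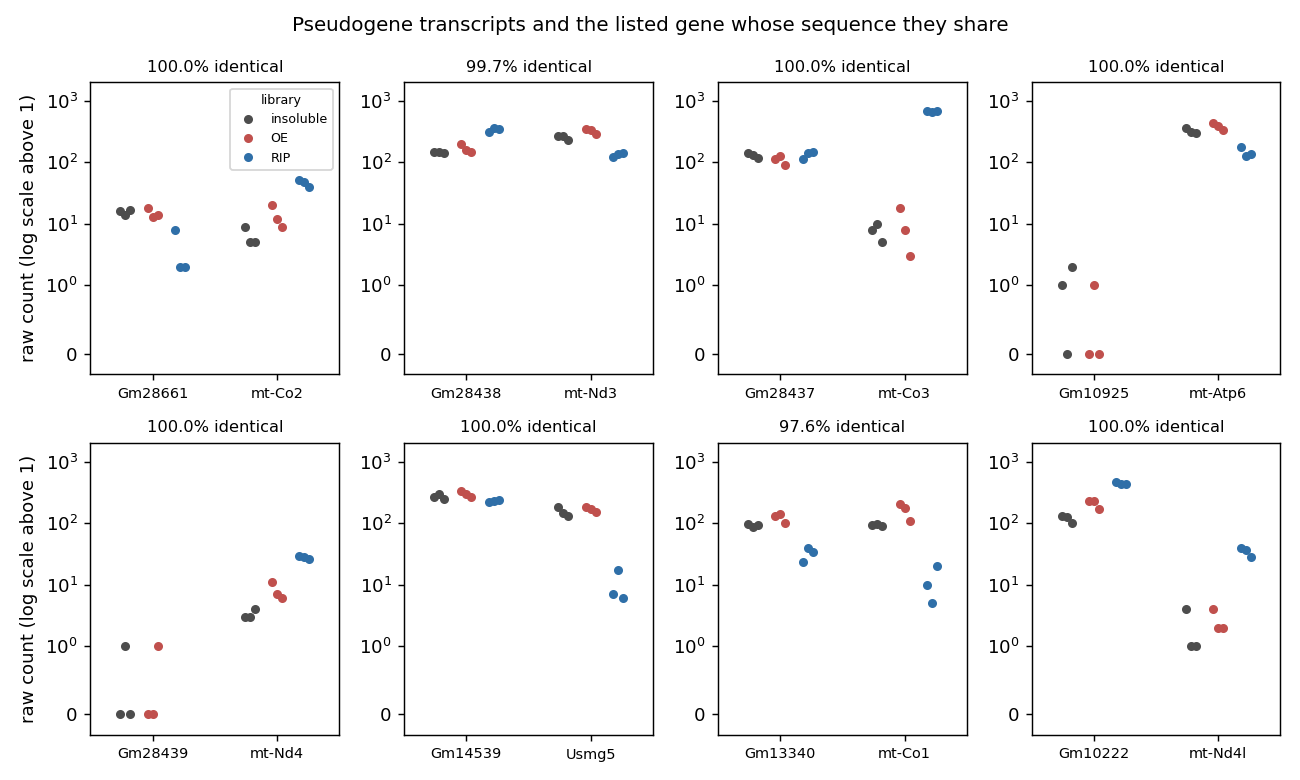
Raw counts (log scale above 1, linear below) of 8 pseudogene transcripts and of the listed gene whose sequence each shares, with 1 point per library for insoluble, OE and, where listed, RIP libraries, and the percent identity above each panel. Nearly all insoluble and OE counts of the pair lie in Gm10222 and Gm28437 but in mt-Atp6 for Gm10925, although all of these copies are exact. The pair of Gm28439 and mt-Nd4 holds few counts (11 in insoluble and 25 in OE, summed over libraries). Gm28439 copies 876 of the 1378 bases of mt-Nd4.

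The other pseudogene with a listed source was Gm14539 (chrX:20581141-20581314, minus strand), a processed copy whose 174 bases all match Usmg5, the gene of a small ATP synthase subunit. It is shown because it had the highest level per kilobase and none of its 50-base words is unique.
Gm14539: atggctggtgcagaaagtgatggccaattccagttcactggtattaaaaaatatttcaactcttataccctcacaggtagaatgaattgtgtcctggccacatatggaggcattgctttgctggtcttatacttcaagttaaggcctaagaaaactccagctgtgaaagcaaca
Gm14539 held 265, 299 and 243 counts in insoluble and 327, 294 and 263 in OE libraries, and Usmg5 182, 145 and 129 and then 186, 170 and 154. Neither passed the test in OE (log2 fold change -0.10 ± 0.09 and -0.07 ± 0.11, SE). In RIP, Gm14539 held 221, 231 and 233 counts and fell by 0.65 ± 0.10 on the log2 scale (adjusted p = 0.000332), while Usmg5 held 7, 17 and 6 and fell by 4.31 ± 0.30. Over all 57 predicted transcripts with a sequence, 17 had fewer than 80% of their 50-base words to themselves, among them Gm12191 (0%, shared with Rpl30-ps9) and Gm23935 (0%, shared with Gm24245).

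In the OE comparison, 15 of 50 predicted transcripts passed an adjusted p of 0.05 in edgeR's quasi-likelihood test ("called" from here on), 8 higher and 7 lower, and 35 did not. Over all 195 genes tested 39.5% were called (21% higher and 18.5% lower), and among the other nuclear genes 57 of 136. Log2 fold changes of the predicted transcripts ran from -0.79 to 0.82, with a median of -0.04 against -0.01 over all genes. No call reached an absolute log2 fold change of 1, and 3 calls over all genes did. Groups did not overlap in 22 of the 50, where 49.2% of all genes tested did not overlap.

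The largest rise was that of Gm37074, a TEC entry that overlaps no other gene (chromosome 1, 191249424 to 191251266, plus strand). It held 181, 196 and 190 counts in insoluble and 414, 424 and 341 in OE libraries. Every OE library was thus above every insoluble library, and normalised counts rose from 206.4 ± 21.5 to 364.2 ± 21.4 (SD, n = 3 each), 1.76-fold (log2 fold change 0.82 ± 0.09, SE, adjusted p = 3.47e-14). The lincRNA Gm32200, further along chromosome 1 on the other strand (191436340 to 191465048), did not pass. It held 887, 837 and 728 counts in insoluble and 1230, 1090 and 712 in OE. OE replicate 3 of Gm32200 was low, and without it Gm32200 was called higher (log2 fold change 0.19, adjusted p = 0.000597).

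Entries inside introns moved both ways. Of 14 tested, which leave out entries that also overlap an exon on the opposite strand, 3 were called higher and 2 lower. Of all genes tested, 39.5% were called. Gm37827, in an intron of the zinc finger gene Tshz3 (chromosome 7, 36733017 to 36734558), held 40, 41 and 27 counts in insoluble and 62, 73 and 79 in OE, and rose 1.73-fold (log2 fold change 0.76 ± 0.20, adjusted p = 0.00079). E230020A03Rik, in the same host gene, held 18, 9 and 9 and then 14, 11 and 8, groups that overlap. Gm43328, in the small GTPase gene Rap1a (chromosome 3, 105732444 to 105733877), held 483, 439 and 450 and then 797, 696 and 527, and rose 1.24-fold (log2 fold change 0.32 ± 0.07, adjusted p = 4.64e-05). Gm42970, in Ank2 (chromosome 3, 127298322 to 127299673), had the highest count of all 58, with 1742, 1616 and 1654 in insoluble and 2454, 2356 and 1901 in OE. Its rise was small, 1.14-fold (log2 fold change 0.19 ± 0.04, adjusted p = 0.000152), and was not called when libraries were scaled by their totals alone (adjusted p = 0.065).

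The intronic entries that fell were Gm42853 and AC123061.2. Gm42853, in Srrm4 (chromosome 5, 116456098 to 116457484), held 474, 419 and 360 counts in insoluble and 387, 353 and 303 in OE. Raw counts overlap, but after scaling all OE libraries were lower, with 452.4 ± 26.3 and 321.7 ± 4.51 normalised counts (SD, n = 3 each), a fall of 0.49 ± 0.08 on the log2 scale (adjusted p = 3.37e-08). AC123061.2, in Pcdh9 (chromosome 14, 93202100 to 93202901; Gm17922 in release M21), held 527, 472 and 438 and then 503, 512 and 473, and its fall of 0.18 ± 0.07 (adjusted p = 0.0365) was the weakest call. It was lost in 9 of 12 alternatives, among them the fits that left out insoluble replicate 1 (adjusted p = 0.143), 2 (0.116) or 3 (0.135), and the fits that left out OE replicate 1 (0.229) or 2 (0.075).

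Among the 9 tested entries that overlap an exon on the opposite strand, 3 were called higher and 2 lower. Of all genes tested, 21% were called higher and 18.5% lower. Whether counting used strand is not given in the sources used here, and reads of the partners cannot be told apart without it. Gm45470, opposite the beta-3 adrenergic receptor gene Adrb3 (chromosome 8, 27228686 to 27240332), held 1179, 1123 and 974 counts in insoluble and 2079, 1908 and 1529 in OE. All OE libraries were above all insoluble ones, and it rose 1.43-fold (log2 fold change 0.52 ± 0.05, adjusted p = 1.37e-18). Gm4793, opposite the neuron navigator gene Nav1 (chromosome 1, 135584773 to 135599948), held 472, 416 and 367 and then 665, 648 and 571, and rose 1.29-fold (log2 fold change 0.36 ± 0.07, adjusted p = 5.4e-06). Gm43413, opposite Rhof and inside an intron of Tmem120b, held 61, 52 and 37 and then 99, 81 and 71, and rose by a log2 fold change of 0.51 ± 0.17 (adjusted p = 0.012). That call was lost in DESeq2 (adjusted p = 0.0629) and when insoluble replicate 3 (0.0692) or OE replicate 1 (0.0659) was left out.

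The fallers of this kind had high counts. Gm9752, opposite the coding gene 4833420G17Rik (chromosome 13, 119473804 to 119476761), held 1093, 1072 and 935 counts in insoluble and 851, 828 and 720 in OE. All OE libraries were below all insoluble ones, and the fall of 0.60 ± 0.05 on the log2 scale (adjusted p = 2.58e-18) was the largest among the calls. Gm37422, opposite the lysine methyltransferase gene Smyd2 (chromosome 1, 189879935 to 189884652), held 1152, 1071 and 989 and then 1060, 893 and 887, and fell by 0.41 ± 0.05 (adjusted p = 6.87e-11). B230206H07Rik, opposite Eps8l2, the only listed antisense partner, held 359, 274 and 282 and then 399, 433 and 341, and did not pass (log2 fold change 0.13 ± 0.08, adjusted p = 0.212). Eps8l2 held 173, 165 and 158 and then 240, 198 and 243, and did not pass either (0.23 ± 0.11, adjusted p = 0.0722).

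The mitochondrial copies did not move one way. Gm10222 had 128.9 ± 9.08 normalised counts in insoluble and 193.3 ± 18.1 in OE (SD, n = 3 each) and rose (log2 fold change 0.58 ± 0.11, SE, adjusted p = 5.95e-06). Gm28437 held 142, 130 and 116 counts in insoluble and 113, 126 and 91 in OE, and fell by 0.46 ± 0.13 (adjusted p = 0.0015). Gm28438 had a log2 fold change of -0.02 ± 0.11 (adjusted p = 0.885), Gm28661 one of -0.29 ± 0.36 (0.514) and Gm13340 one of 0.20 ± 0.13 (0.235). Of their sources tested, mt-Co1 rose (0.58 ± 0.13, adjusted p = 0.000104), and mt-Nd3 (0.12 ± 0.09, adjusted p = 0.276) and mt-Atp6 (0.04 ± 0.08, adjusted p = 0.711) did not pass.

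Of the remaining calls, the lincRNA AC155298.1 (chromosome 13, 59405486 to 59409301; Gm34721 in release M21) held 226, 206 and 189 counts in insoluble and 196, 178 and 174 in OE, and fell by 0.41 ± 0.10 (adjusted p = 0.000479). Of 9 lincRNAs tested it was the 1 called in OE, where 39.5% of all genes tested were called. In RIP 6 of 7 lincRNAs tested were called, where 85.3% of all genes tested were. Gm37795, a TEC entry that overlaps Mir34a on the same strand, the gene of the p53-responsive microRNA miR-34a (chromosome 4, 150068539 to 150070997), held 69, 57 and 56 and then 53, 56 and 40, and fell by 0.52 ± 0.18 (adjusted p = 0.019). It was no longer called when insoluble replicate 1 (adjusted p = 0.0847) or 3 (0.0501) was left out, when OE replicate 1 was (0.0537), or in DESeq2 (0.0643). AC171277.1, a TEC entry in the peroxisomal import receptor gene Pex7 and the second highest of the 58, held 1388, 1311 and 1206 and then 1767, 1537 and 1271, with a log2 fold change of -0.01 ± 0.05 (adjusted p = 0.918).

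The 35 predicted transcripts that did not pass had log2 fold changes from -0.79 (Gm14269) to 0.78 (Gm44677, in an intron of Dlg2). For some of them 1 library set the outcome. Gm44677 was called higher when OE replicate 3 was left out (log2 fold change 0.95, adjusted p = 0.0481), Gm45694 without OE replicate 1 (0.61, adjusted p = 0.0228), and the lincRNA Gm45869 without insoluble replicate 1 (0.35, adjusted p = 0.0424). Of the 4 Rik transcripts 3 were tested and 0 called, and of the 7 AC transcripts tested 2 were called, both lower. Over all genes tested 39.5% were called.

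**Figure D2:**
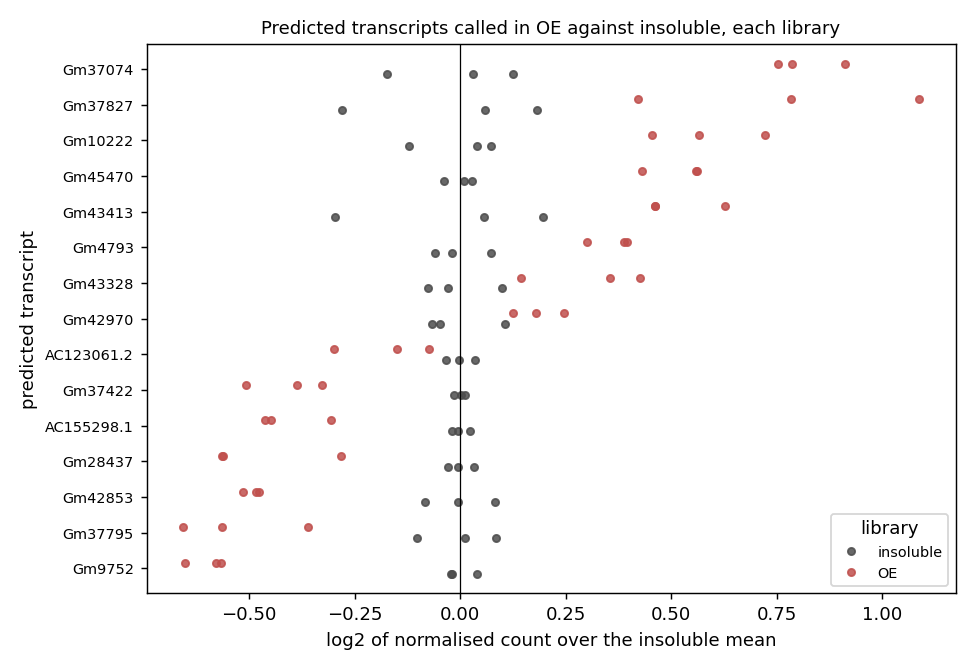
Normalised counts of the 15 predicted transcripts called in OE against insoluble, as log2 of each library's value over the insoluble mean (x axis), with 1 point per library and transcripts ordered by fold change. OE points of the 8 risers lie right of all insoluble points of the same row and those of the 7 fallers left, from Gm37074 at the top to Gm9752 at the bottom.

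In the RIP comparison, which the limit on row matching touches, 37 of the 38 listed predicted transcripts were tested and 31 were called, 12 higher and 19 lower. Gm6939 was below the filter, with 25, 16 and 8 insoluble and 5, 4 and 1 RIP counts. Calls were the rule in this table, with 85.3% of all 190 genes tested called (40.5% higher and 44.7% lower) and 118 of 139 other nuclear genes. For 8 of the 31 called, the ratio in the authors' deposited table lay on the other side of 1 from the counts: Gm37074, Gm37795, Gm14286, B230206H07Rik, Gm12191, Gm28438, Gm10222 and Gm4793. Over all 190 genes tested, ratio and counts lay on the same side of 1 for only 100. Groups did not overlap in 32 of the 37, against 87.9% of all genes tested. The median log2 fold change of the predicted transcripts was -0.35, against 0.03 over all genes and 0.13 over other nuclear genes, and 18 calls reached an absolute log2 fold change of 1. Upper-quartile scaling moved the median over all genes to -0.32 and that of the predicted transcripts to -0.70, so directions are relative to such a shift.

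The highest fold change in RIP belonged to Gm45694, a TEC entry in an intron of the zinc finger gene Zfp961 (chromosome 8, 71983903 to 71987153). It held 36, 38 and 29 counts in insoluble and 690, 865 and 880 in RIP libraries, far above, and was 17.9-fold higher (log2 fold change 4.15 ± 0.14, adjusted p = 1.98e-08). The authors' deposited table gave 8.78. Gm20692, opposite an intron of Hdhd5 (chromosome 6, 120512449 to 120513232), held 17, 20 and 19 and then 155, 158 and 136, 6.00-fold higher (log2 fold change 2.58 ± 0.16, adjusted p = 9.66e-07), and the authors' deposited table gave 5.96. Gm37827, which had risen in OE, held 264, 302 and 223 counts in RIP, 5.54-fold above insoluble (log2 fold change 2.46 ± 0.18, adjusted p = 2.27e-06; 5.79 in the authors' deposited table).

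Further risers were AC159810.1, in an intron of the lysozyme-like gene Lyzl4, with 13, 10 and 18 insoluble and 78, 95 and 82 RIP counts (log2 fold change 2.22 ± 0.23), and the lincRNA Gm45869, with 141, 117 and 91 and then 558, 567 and 575 (1.88 ± 0.11). Gm10222 held 470, 437 and 427 counts in RIP (1.49 ± 0.09; a ratio of 0.541 in the authors' deposited table), and its exact source mt-Nd4l, at 40, 36 and 28, rose as well (3.64 ± 0.38). Gm15832, which shares exon sequence with the ubiquitin ligase gene Rnf149, held 72, 47 and 61 and then 230, 221 and 190 (1.42 ± 0.17). In each of these transcripts the groups stood apart. Gm37090 held 34, 38 and 25 insoluble and 88, 90 and 90 RIP counts (1.06 ± 0.15), Gm28438 rose by 0.81 ± 0.10 from the counts given above, and AC159813.1 went from 249, 225 and 222 to 536, 582 and 503 (0.81 ± 0.09). Gm32200 (0.75 ± 0.05) and Gm4793 (0.36 ± 0.06) made up the rest of the risers, and Gm4793 was not called with upper-quartile scaling (adjusted p = 0.883).

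The lowest fold change in RIP was that of Gm12191, a processed pseudogene of the ribosomal protein gene Rpl30 in an intron of the deadenylase gene Cnot6 (chromosome 11, 49678710 to 49679057). It held 137, 117 and 127 counts in insoluble and 13, 8 and 15 in RIP (log2 fold change -3.80 ± 0.20, adjusted p = 3.65e-07), while the authors' deposited table gave a ratio of 5.74. The lincRNA Gm30122 (chromosome 10, 78248880 to 78264139) held 64, 67 and 49 and then 5, 6 and 7 (-3.70 ± 0.20, adjusted p = 3.89e-07). AC171277.1, high in every insoluble and OE library, held 573, 592 and 553 counts in RIP and fell to 0.331 of its insoluble level (-1.59 ± 0.05, adjusted p = 1.26e-08; 0.628 in the authors' deposited table).

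Lower in RIP were also the mitochondrial copies Gm28661, with 8, 2 and 2 RIP counts (log2 fold change -2.34 ± 0.42), and Gm13340, with 23, 39 and 34 (-1.92 ± 0.20). Their sources went in opposite directions: mt-Co2 rose (2.43 ± 0.24) with 52, 47 and 39 counts, and mt-Co1 fell (-3.40 ± 0.32) with 10, 5 and 20. AC115910.1, in an intron of Nrxn3, held 26, 24 and 18 and then 6, 12 and 6 (-1.89 ± 0.28). B230206H07Rik held 178, 102 and 96 counts in RIP (-1.69 ± 0.22), and its antisense partner Eps8l2, at 182, 112 and 214, did not pass (-0.38 ± 0.21, adjusted p = 0.12).

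E230020A03Rik, with 9, 4 and 3 RIP counts (log2 fold change -1.55 ± 0.42), lies in the same host gene as Gm37827, which rose. Its call was lost without insoluble replicate 1 (adjusted p = 0.0585). Gm14286 held 74, 55 and 45 insoluble and 37, 24 and 29 RIP counts (-1.35 ± 0.20), and Gm37795 held 35, 42 and 42 RIP counts (-1.02 ± 0.14). The other 9 fallers had log2 fold changes from -0.90 (Gm37074) to -0.35 (Gm28437). The exact source of Gm28437, mt-Co3, rose (6.03 ± 0.15) from 8, 10 and 5 counts to 696, 654 and 676, so the counts of this pair together rose while those listed under Gm28437 fell. Among these fallers, Gm28437 was not called in 6 of 12 alternatives, including the fits that left out insoluble replicate 1 (adjusted p = 0.154), 2 (0.117), 3 (0.1) or RIP replicate 1 (0.142), and Gm9752 was not called without insoluble replicate 1 (0.0567).

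Not called in RIP were 6: Gm14269, Gm9946, Gm17116, Gm34294, Gm16183 and Gm23935, with log2 fold changes from -0.27 to 0.49. Gm23935 is annotated as a miRNA gene of 57 bases (chr16:11144125-11144181, plus strand). It held 12, 16 and 12 counts in insoluble, 21, 17 and 16 in OE and 25 in each RIP library. All of its 50-base words recur in Gm24245, so its identity in the counts is uncertain. Gm16183 was called higher without insoluble replicate 3 (adjusted p = 0.0468) or RIP replicate 1 (0.0148), and Gm23935 without insoluble replicate 2 (0.0477).

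**Figure D3:**
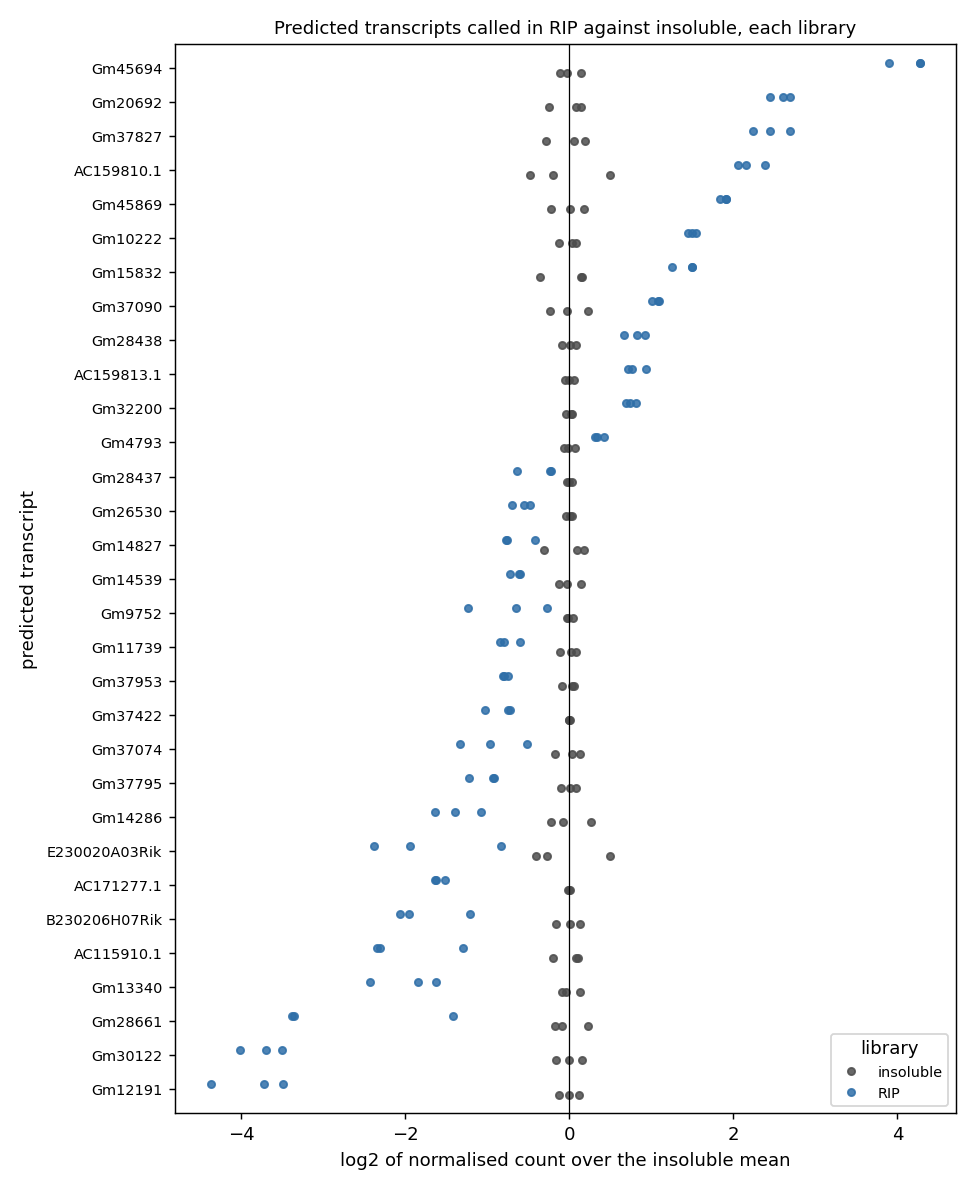
Normalised counts of the 31 predicted transcripts called in RIP against insoluble, as log2 of each library's value over the insoluble mean (x axis), with 1 point per library. RIP points lie apart from the insoluble points in every row, from Gm45694 at the top to Gm12191 at the bottom.

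OE and RIP share their insoluble libraries, so values are set side by side without a measure of overlap. Of 37 predicted transcripts tested in both, 8 were called in both. Of all genes tested, 85.3% were called in RIP and 39.5% in OE, so this count gives no measure of a shared response. Gm37827 (log2 fold change 0.76 in OE and 2.46 in RIP), Gm10222 (0.58 and 1.49) and Gm4793 (0.36 and 0.36) were higher in each. Gm9752 (-0.60 and -0.67), Gm37795 (-0.52 and -1.02), Gm28437 (-0.46 and -0.35) and Gm37422 (-0.41 and -0.83) were lower in each. Gm37074 was higher in OE (0.82) and lower in RIP (-0.90), with 102, 174 and 129 RIP counts. For 4 of these 8 the authors' deposited table put the RIP ratio on the other side of 1, at 1.73 for Gm37074, 1.86 for Gm37795, 0.823 for Gm4793 and 0.541 for Gm10222. Gm45694, the highest in RIP, had a log2 fold change of 0.35 ± 0.22 in OE (adjusted p = 0.202), and Gm12191, the lowest in RIP, one of 0.24 ± 0.11 (adjusted p = 0.0812).

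**Figure D4:**
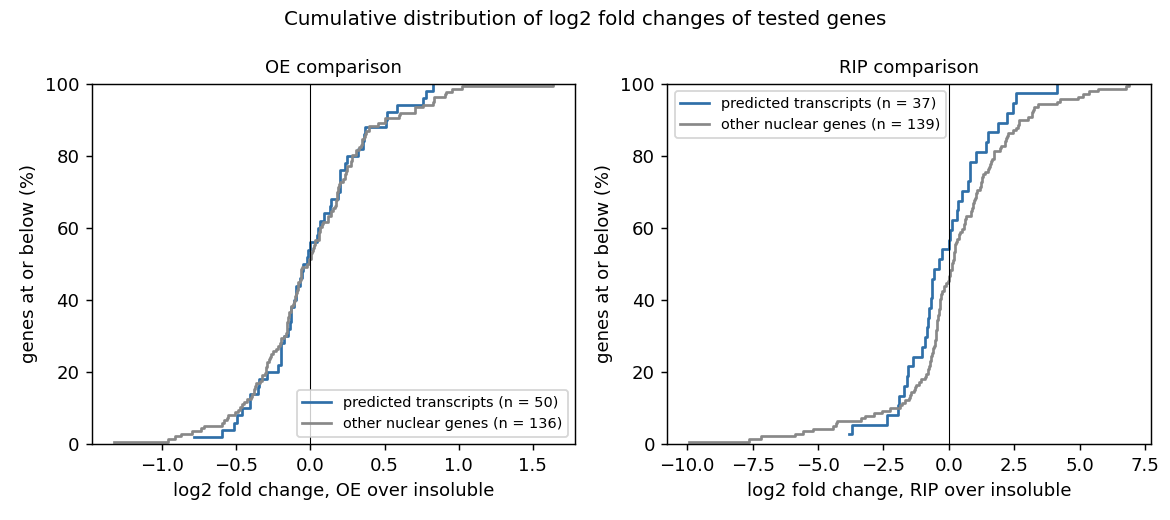
Cumulative percent of tested genes at or below each log2 fold change (x axis) for predicted transcripts and other nuclear genes, in the OE comparison (left, 50 and 136 genes) and the RIP comparison (right, 37 and 139 genes). The OE curves run close together, with medians of -0.04 and -0.02, and in RIP the curve of predicted transcripts lies to the left through the middle, with medians of -0.35 and 0.13.

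The share of all listed counts held by the predicted transcripts was slightly lower in every OE library than in any insoluble library. In the OE table it was 19.0% to 19.1% in the insoluble libraries and 17.9%, 18.6% and 18.6% in OE libraries. In the RIP table it was 12.3% to 12.4% in insoluble and 12.2%, 13.5% and 13.2% in RIP libraries. Of nuclear counts alone it was 24.6% on average in insoluble and 24.7% in OE libraries of the first table. In the second table it was 16.4% on average in insoluble (16.3% to 16.5%) and 13.8% in RIP (12.9% to 14.3%), groups that do not overlap. Nuclear counts there made up 54056 of 71736 in insoluble replicate 1 and 78033 of 82915 in RIP replicate 1.

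Since YTHDF proteins read m6A, the transcripts were searched for GGACT, the DNA spelling of the commonest m6A core, on the transcript strand. It occurred in 43 of 57 predicted transcripts (75.4%) and in 151 of 164 other nuclear genes (92.1%), whose longest transcripts are longer (median 1584 and 3662 bases). Of 6120 annotated genes with a longest transcript within 20% of 1584 bases, 81% held it. Per kilobase the medians were 0.70 in predicted transcripts, 1.23 in other nuclear genes and 1.09 in those 6120 annotated genes. Within the predicted transcripts the median was 0.45 per kilobase in the 12 called higher in RIP, 0.85 in the 19 called lower and 1.47 in the 6 not called. In OE it was 0.67 in the 8 called higher, 0.81 in the 7 called lower and 0.67 in the 34 with a sequence that were not called. A match is a description of the letters and not a methylated site.

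The first GGACT with 28 bases on each side is shown, in capitals, for the predicted transcripts that follow. Gm37074 (chr1:191249794-191249854) and Gm37827 (chr7:36734301-36734361), both on the plus strand, had the highest fold changes among those called in OE. Gm45694 (chr8:71986042-71986102, plus strand) had the highest in RIP. Gm45470 (bases 1969 to 2029 of its longest transcript) had the smallest p among the rises in OE.
Gm37074: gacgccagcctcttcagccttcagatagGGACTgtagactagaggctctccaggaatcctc
Gm37827: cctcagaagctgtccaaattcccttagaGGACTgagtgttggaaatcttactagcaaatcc
Gm45694: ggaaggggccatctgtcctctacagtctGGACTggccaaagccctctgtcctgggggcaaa
Gm45470: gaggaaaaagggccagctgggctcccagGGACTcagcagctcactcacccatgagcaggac
Gm37074, Gm45694 and Gm45470 held 4 such matches each and Gm37827 held 1. The densest was the antisense RNA Gm17116 at 5.92 per kilobase, which was called in neither comparison. Gm12191, Gm30122 and Gm13340, among the lowest in RIP, and AC159810.1 and Gm20692, among the highest, held 0. Also among the lowest in RIP, Gm28661 held 1 and AC115910.1 held 5.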

How the data were processed

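Raw counts per gene and library were deposited in 2 tables, named as such per the file headers. The submitters' processing notes name Bowtie2 2.2.3, HISAT2 2.1.0, HTSeq 0.6.0 and the build mm10 without their roles. The criterion by which genes were listed, the annotation and the use of strand are not given in the sources used here. Beside the counts, the authors deposited a mean signal per gene, which was not used, a linear fold ratio and a p-value without adjustment (columns so named per the file headers). The OE table also had 724 blank rows, which were dropped.

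Each comparison was fitted over its whole table with edgeR 4.0.16 under R 4.3.3 (quasi-likelihood test without a replicate block, TMM scaling, and filterByExpr at 10 counts and a total of 15). Benjamini-Hochberg adjustment ran over all genes tested. Genes at an adjusted p under 0.05 were called. Log2 fold changes are OE or RIP over insoluble, with their SE. Normalised counts are counts over the TMM-scaled total relative to its mean in that comparison. DESeq2 1.42.0, other scalings, no filter, a fold minimum, a replicate block and leaving out each library were alternatives. Counting error is not the only limit on precision, since replicates also differed beyond it. Reads carried no molecular identifiers.

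Sequences, positions and gene types are from GENCODE M21 (GRCm38, the assembly of mm10), matched by identifier. Uniqueness is the share of the 50-base words in a gene's longest transcript that were found in no transcript of another gene on either strand. Introns and intergenic sequence were not searched. Values in every library are given for predicted transcripts called with groups apart (the 10 largest per direction), the 3 highest, and those sharing sequence or exons with another listed gene. Those outside this rule were named after their values were seen. The transcripts and lists were chosen with earlier results of these data known. The source gene of 1 predicted transcript annotated as a pseudogene is not reported here.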

Additional observations from a re-analysis of the deposited data

How the results depend on the processing

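The number of predicted transcripts called in OE was 12 to 17 with each library left out in turn, against 15, and 55 to 75 over all listed genes, against 77. In RIP it was 29 to 32 against 31, and 156 to 165 over all genes, against 162. Requiring an absolute log2 fold change of 1 kept, by construction, 0 in OE (3 over all genes) and 18 in RIP (98 over all genes). The authors' deposited unadjusted p-values, an alternative chosen after seeing the data, gave 13 in RIP and 67 over all genes, and the cause of that difference was not tested. They gave 15 in OE. Scaling by totals alone changed the split over all genes in OE to 31 higher and 47 lower, from 41 and 36, and that of predicted transcripts to 7 and 9, from 8 and 7. Of the 15 calls in OE, 11 held in all 12 count-based alternatives other than the fold minimum, and 27 of the 31 in RIP. The one reversal was Gm9946 in RIP, at -0.34 with upper-quartile scaling (adjusted p = 0.0108) against 0.01. Without the mitochondrial copies, chosen after seeing the data, 13 remained called in OE and 26 in RIP.

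The fit with a replicate block called 14 in OE and 31 in RIP. Deviations of libraries with the same number had correlations of -0.028, 0.0395 and 0.0929 in OE and 0.0912, -0.0772 and -0.207 in RIP, too low for the numbers to be used as pairs. The block ended the OE call of AC123061.2 (adjusted p = 0.0532) and the RIP call of Gm28437 (0.06), and Gm16183 was called in RIP with it (0.0280).

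Shares of listed counts were 19.1% in insoluble and 18.4% in OE libraries, 24.6% and 24.7% of nuclear counts, and 16.8% and 15.9% without Gm42970. In the RIP table they were 12.4% in insoluble and 12.9% in RIP, 16.4% and 13.8% of nuclear counts, and 11.2% and 10.7% without Gm32200. With words of 100 bases, 11 predicted transcripts in place of 17 had under 80% unique. The median GGACT density was 0.74 per kilobase with the median over transcripts. Depth is unknown, since the tables hold selected genes.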
